A study of Mus musculus with 35 samples.

Results

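A set of 10 enzymes that lengthen or desaturate fatty acids was followed in interscapular brown adipose tissue (iBAT) of mice kept at 6 °C for up to 5 days. They were chosen by name from the count table: the elongases Elovl1, Elovl3, Elovl4, Elovl5, Elovl6 and Elovl7 and the desaturases Scd1, Scd2, Fads1 and Fads2. These 10 genes are among the 55421 in the table, of which 32079 had at least 1 read. All animals were male C57BL/6J mice, 9 to 10 weeks old, and were fed chow. The 7 groups of 5 mice were room temperature (RT) controls, housed at 24 °C, and mice held in a 6 °C incubator for 6 hours or for 1, 2, 3, 4 or 5 days. Each mouse gave 1 library. Cold-exposed mice lived singly without nesting material, and controls stayed in the colony, so that temperature and housing cannot be told apart. The time of day of tissue collection is not given in the sources used here.

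The libraries counted the 3' ends of polyadenylated transcripts, so that a count does not scale with transcript length. Between 3846016 and 6047247 reads per mouse were assigned to genes, and 1 read corresponded to between 0.165 and 0.26 CPM, the counts scaled to a common library total. Mitochondrial genes held 40.2% of all reads. Values below are CPM scaled by the trimmed mean of M values (TMM), and each spread is an SD over 5 mice unless stated. Brown adipocyte markers were present throughout: their 10 genes summed to between 14320 and 18030 CPM in RT mice and none was at 0 in any group. In whole tissue, fewer cells of a type and less RNA per cell cannot be told apart.

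Fatty acid synthase ends its work at palmitate, and further carbons are added on the endoplasmic reticulum by a cycle whose first, condensing step is carried out by an ELOVL enzyme. Each ELOVL prefers a range of chain lengths and degrees of saturation, so the set that a cell expresses shapes its acyl-CoA pool. The stearoyl-CoA desaturases place the first double bond into saturated chains, while FADS1 and FADS2 act on polyunsaturated chains taken from the diet. Brown adipocytes both burn and rebuild lipid in the cold, and Elovl3 is a long-known cold-responsive gene of this tissue.

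Each duration of cold was first compared with the RT controls, to ask which of these enzymes changed and when. The mean of Elovl3 was 24.8-fold that of the controls after 6 hours (144.8 ± 54.8 CPM, n = 5) and 93.7-fold after 5 days (546.6 ± 32.0 CPM, n = 5). Elovl3, Elovl6 and Elovl5 were called higher at all 6 durations. Scd1 was called lower from 6 hours to 4 days, while Scd2 was called higher from 1 day on. In each of the 30 cold-exposed mice Elovl4 had more reads than in any control, where it had almost none, and Elovl1 was called higher after 1 and 3 days only. Neither Fads1 nor Fads2 was called in any comparison. A gene was called where edgeR's quasi-likelihood test, adjusted by Benjamini-Hochberg over every gene that passed the filter on counts, gave an adjusted p under 0.05. All 6 comparisons share the same 5 control mice. After 6 hours, 3 of the 8 members tested were higher and 1 was lower, in a table where 21.5% of genes were called higher and 21.0% lower. The 6 hour count rose to 7 members without RT mouse 2, among them Elovl1 (log2 fold change 0.57) and Scd2 (-0.71). That count also holds a member that the filter removes at 6 hours when all mice are used, and its call is given no weight. After 1 day, 6 of 9 were higher and 1 was lower, against 18.9% and 17.8% of all genes tested. The background was 16.4% higher and 14.7% lower after 2 days, when 5 of 9 members were higher and 1 was lower. After 3 days, with 18.3% of genes higher and 15.5% lower, 6 of 9 members were higher and 1 was lower. For 4 days, 4 of 8 were higher and 1 was lower beside 19.4% and 18.6% of genes, and for 5 days 4 of 8 were higher and 0 lower beside 20.2% and 18.6%. With all mice used, Elovl4 entered these tests at 1, 2 and 3 days only, and Elovl7 at none, because of their low counts. Elovl4 passed the filter only through its cold-exposed mice, and without it 5, 4 and 5 of 8 members were higher at 1, 2 and 3 days.

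A test for any difference among the 7 groups (edgeR, 6 degrees of freedom, 35 mice) called 7 of 9 members, Elovl4 among them, beside 60.4% of the 12077 genes tested. Elovl4 passed the filter only through its cold-exposed mice, so that its call is given no weight. The other members called were Elovl1, Elovl3, Elovl5, Elovl6, Scd1 and Scd2. Scaling by library size alone, without TMM factors, lowered the median log2 fold change of all genes to between -0.15 and -0.25 and turned the calls into 931 to 1440 higher and 2430 to 3399 lower genes per duration. Under that scaling the calls of Elovl5 after 6 hours and of Elovl1 and Scd2 after 1 day were lost, while Scd2 after 6 hours and Fads1 after 1 day were called lower.

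**Figure D1:**
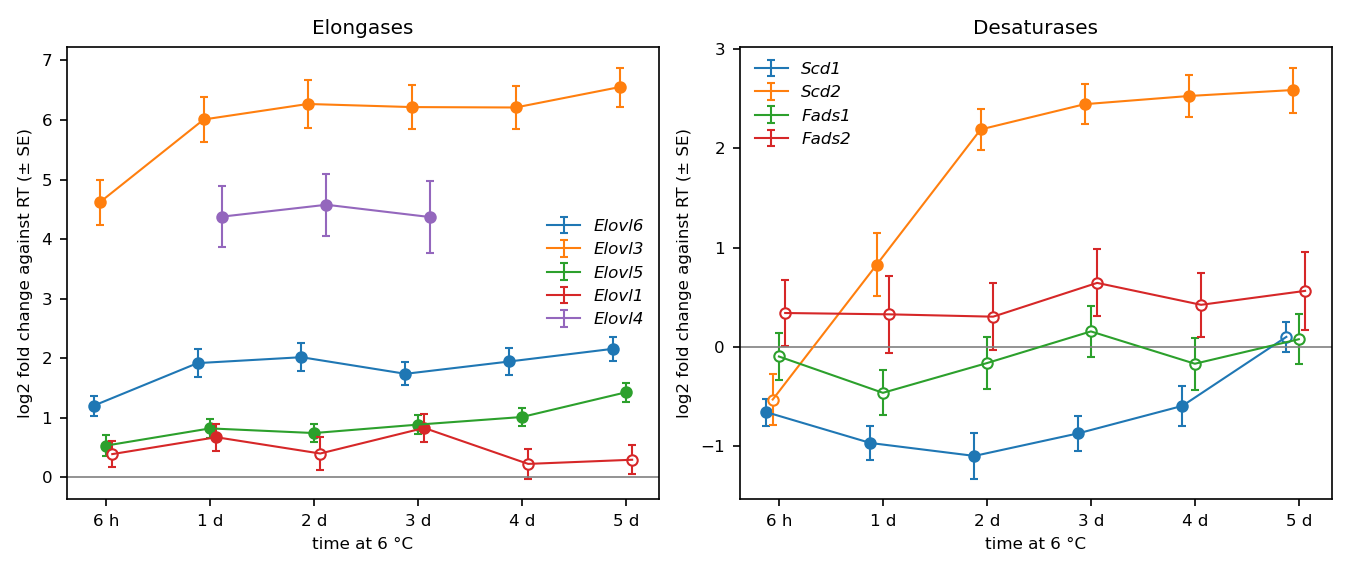
Log2 fold change against RT (± SE from edgeR, y axis) by time at 6 °C (x axis) for 5 elongases (left) and 4 desaturases (right), 5 mice per group. Filled circles passed an adjusted p of 0.05 and open circles did not. Elovl4 has points at 1, 2 and 3 days only, where it passed the filter on counts only through its cold-exposed mice. Its filled circles are given no weight. Elovl3 lay between 4.62 and 6.55 and Scd1 fell to -1.10 at 2 days before it was 0.10 at 5 days.

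The promoters of Elovl4, Elovl5 and Elovl6 are shown so that their letters can be compared. The means of these elongases were higher than in RT mice at all 6 durations. So was the mean of Elovl1 (1.17-fold to 1.76-fold), whose promoter is not printed. RefSeq windows on GRCm38.p6, each of 300 bases from 250 before to 50 after a transcript start, were at hand for 6 members (Elovl1, Elovl4, Elovl5, Elovl6, Elovl7 and Fads2). A set of 5 strings was searched on both strands: CCAAT (37.4% of 32851 mouse promoter windows), CACGTG (7.15%), TGACGTCA (1.79%), TCACNCCAC (1.24%) and AGGNCAAAG (2.04%). Elovl5 held CACGTG, TGACGTCA and CCAAT on the other strand at 2 places, and Elovl4 held CACGTG and 1 CCAAT on the other strand. Elovl1 held 1 CCAAT, and the windows of Elovl6, Elovl7 and Fads2 held none of the 5 strings. Capitals mark these matches (CCAAT on the other strand reads ATTGG), which do not overlap one another and are a description of letters and not of bound sites.
Elovl4 promoter, chr9:83806256-83806555, minus strand: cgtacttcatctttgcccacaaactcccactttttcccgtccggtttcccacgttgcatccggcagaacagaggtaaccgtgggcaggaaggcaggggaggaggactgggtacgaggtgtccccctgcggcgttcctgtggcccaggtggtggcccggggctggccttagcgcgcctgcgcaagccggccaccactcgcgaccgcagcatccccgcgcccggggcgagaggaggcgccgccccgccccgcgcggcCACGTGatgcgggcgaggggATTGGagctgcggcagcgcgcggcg
Elovl5 promoter, chr9:77917115-77917414, plus strand: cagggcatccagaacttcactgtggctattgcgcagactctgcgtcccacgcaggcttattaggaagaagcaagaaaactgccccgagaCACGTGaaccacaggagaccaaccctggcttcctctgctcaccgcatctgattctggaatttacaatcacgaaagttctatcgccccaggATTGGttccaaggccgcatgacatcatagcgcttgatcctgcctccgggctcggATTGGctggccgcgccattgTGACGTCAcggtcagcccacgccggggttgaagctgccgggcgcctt
Elovl6 promoter, chr3:129532136-129532435, plus strand: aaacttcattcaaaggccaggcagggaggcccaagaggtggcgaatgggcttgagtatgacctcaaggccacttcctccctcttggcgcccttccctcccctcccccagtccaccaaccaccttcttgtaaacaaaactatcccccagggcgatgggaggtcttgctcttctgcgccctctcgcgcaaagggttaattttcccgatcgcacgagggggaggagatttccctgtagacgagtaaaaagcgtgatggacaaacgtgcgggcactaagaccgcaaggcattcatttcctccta
In the Elovl5 window the first base of CACGTG lay at -161 and that of TGACGTCA at 4 from the transcript start, and the CCAAT strings began at -71 and -17. In the Elovl4 window CACGTG began at 6 and the CCAAT string at 26.

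Elovl6 (ENSMUSG00000041220, chromosome 3, 129532355 to 129638495, plus strand, GRCm38) lengthens palmitate to stearate and so takes the product of fatty acid synthase. RT mice had 265, 117, 188.5, 156 and 142 CPM. After 6 hours the values were 394, 331, 492, 417 and 399 CPM, and after 1 day 636, 775, 978, 424 and 472 CPM. Every cold-exposed mouse at these times lay above every control. Values of 395, 631, 674.5, 974 and 872 CPM were measured after 2 days and of 554.5, 733, 418, 504 and 678 CPM after 3 days. After 4 days they were 608.5, 409, 532, 833 and 986 CPM, and after 5 days 526, 727, 872, 1055 and 723 CPM. The groups did not overlap with the controls at any duration. The mean rose from 174 ± 57.3 CPM in RT mice to 406 ± 57.6 CPM after 6 hours (log2 fold change 1.20, SE 0.17, adjusted p = 2.0e-05 in edgeR). By 5 days it had risen to 780.4 ± 197 CPM (log2 fold change 2.16, SE 0.20, adjusted p = 2.1e-07 in edgeR), and the changes in between were 1.92, 2.02, 1.74 and 1.95. The exons of Elovl6 overlap those of Gm35986 on the opposite strand, which had 0 to 53 reads per mouse where Elovl6 had 602 to 5468.

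Elovl3 (ENSMUSG00000038754, chromosome 19, 46131897 to 46135694, plus strand) makes saturated and monounsaturated very long chains. It was at 13.3, 5.23, 5.65, 4.27 and 0.724 CPM in RT mice, which is 69, 27, 26, 26 and 4 reads. After 6 hours it was at 209, 83.2, 189, 144.5 and 98.4 CPM, and after 1 day at 339, 389, 521, 265 and 353 CPM. The lowest of these cold-exposed mice was thus far above the highest control. Mice kept for 2 days had 339, 484, 553, 310 and 566 CPM and those kept for 3 days 359, 479, 357, 359 and 592 CPM. At 4 days the values were 397.5, 321, 365, 527 and 546.5 CPM, and at 5 days 526, 555, 511.5, 544.5 and 596 CPM. All 30 cold-exposed mice lay above all 5 controls, and the 5 day group had the smallest spread of the cold-exposed groups (547 ± 32.0 CPM). The log2 fold change was 4.62 after 6 hours (SE 0.38, adjusted p = 4.0e-08 in edgeR) and 6.01, 6.27, 6.22, 6.21 and 6.55 after 1 to 5 days. Summed over the group and scaled to its depth, the reads were 24.7 times those of the controls after 6 hours (95% interval of counting error 21.0 to 29.3) and 95.7 times after 5 days (81.5 to 113). Pitx3, whose exons overlap on the opposite strand, had 0 to 3 reads per mouse.

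**Figure D2:**
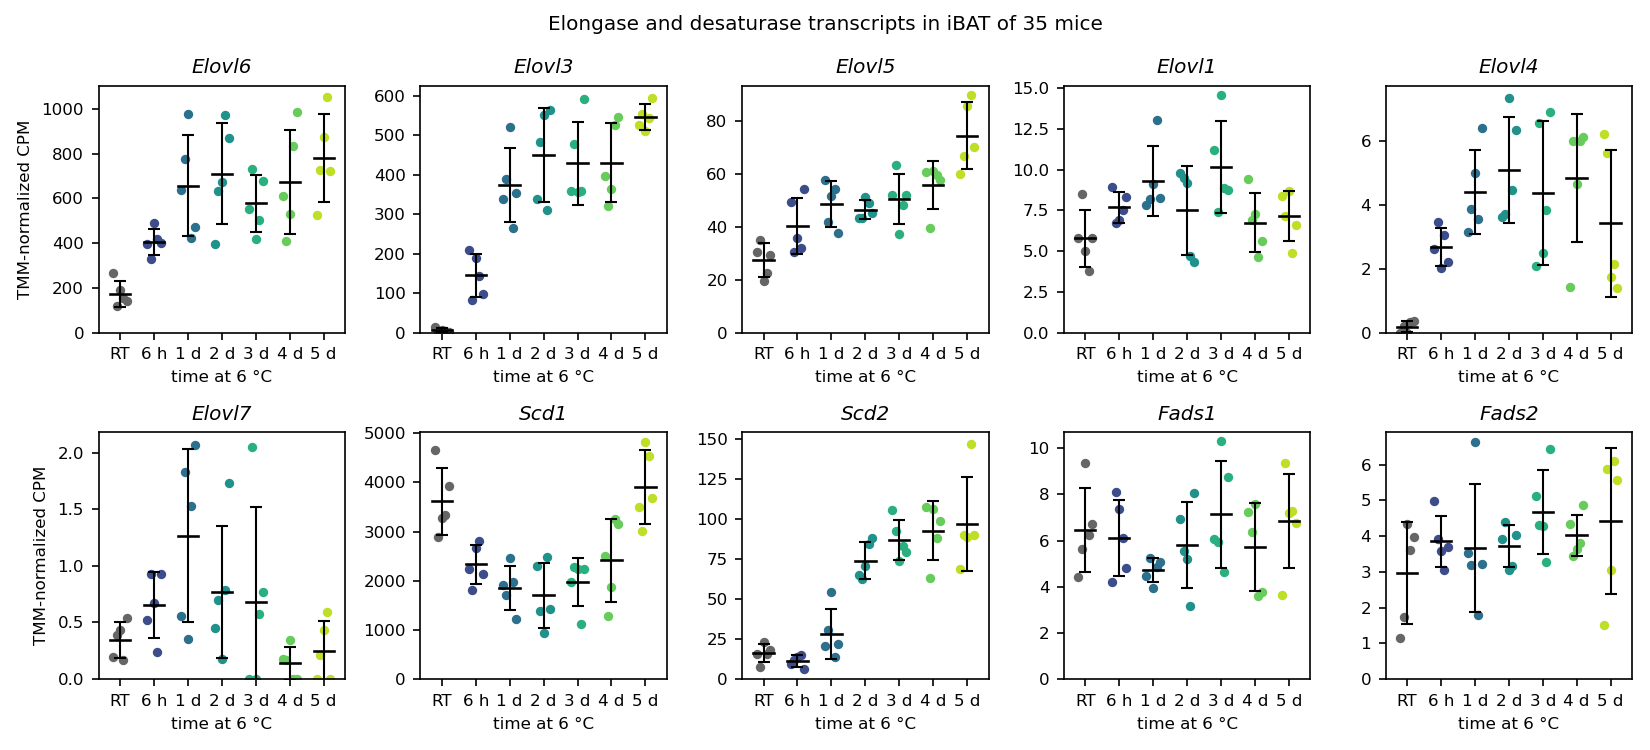
TMM-normalized CPM (y axis, linear, from 0, one scale per gene) of the 10 members in each of 35 mice by time at 6 °C (x axis). Each point is a mouse, and the bars are the mean and SD of 5 mice; Scd1 was at 3615 CPM in RT, 1705 CPM at 2 days and 3908 CPM at 5 days, while Scd2 went from 16.1 to 97.1 CPM.

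Elovl5 (ENSMUSG00000032349, chromosome 9, 77917364 to 77984519, plus strand) elongates polyunsaturated chains. RT mice had 30.45, 35.05, 19.35, 22.7 and 29.3 CPM. Levels were 49.2, 30.5, 35.6, 32.1 and 54.0 CPM after 6 hours, where 3 of 5 mice lay above all controls, and 57.75, 41.6, 51.7, 54.1 and 37.7 CPM after 1 day. From 1 day on all 5 mice of each group were above every control. The values were 43.3, 43.4, 51.25, 48.8 and 44.99 CPM after 2 days and 52.0, 63.4, 37.2, 48.15 and 51.9 CPM after 3 days. They were 60.5, 39.4, 61.0, 59.55 and 57.7 CPM after 4 days and 59.9, 66.7, 85.6, 89.6 and 69.9 CPM after 5 days. The highest levels of this gene were thus found at the last day. Its log2 fold change was 0.54 after 6 hours (SE 0.18, adjusted p = 0.0219 in edgeR), and 0.82, 0.75, 0.89, 1.02 and 1.43 after 1 to 5 days. At 6 hours the call was lost in edgeR without RT mouse 3 or 4, or without the 6 hour mouse 1 or 5 (log2 fold change 0.41 to 0.48, adjusted p 0.0529 to 0.0647), and with library size alone (0.35, adjusted p = 0.139). Within each mouse, the log2 ratio of Elovl6 to Elovl5 was 2.62 ± 0.63 in RT mice and 3.35 ± 0.40 after 6 hours, and lay between 3.36 and 3.86 from 1 to 5 days. That ratio was past the threshold at 1 to 5 days (exact permutation tests, adjusted p 0.0173 to 0.0357 over 24 ratio tests) and not after 6 hours (exact p = 0.0635, adjusted p = 0.0847). Leaving out 1 mouse ended its call after 1 day (without RT mouse 2, 4 or 5, or 1 day mouse 1, 2, 3 or 5; 0.85 to 1.14), 4 days (without RT mouse 2, or 4 day mouse 1, 2, 4 or 5; 0.69 to 0.97) and 5 days (without any 1 of the 5 day mice; 0.70 to 0.80), with adjusted p of 0.0595 to 0.0833 in these exact tests.

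Elovl4 (ENSMUSG00000032262, chromosome 9, 83778692 to 83806277, minus strand) makes the longest acyl chains and is best known from retina and skin. RT mice had 0, 1, 0, 2 and 2 reads. After 6 hours they had 10, 15, 9, 13 and 12 reads, after 1 day 17, 17, 28, 14 and 28, and after 2 days 24, 16, 41, 17 and 22. No cold-exposed mouse had as few reads as any control. Counts were 9, 32, 14, 20 and 27 in the 3 day group and 8, 35, 27, 30 and 34 in the 4 day group, and the 5 day mice had 29, 26, 8, 11 and 7. In the mean, 0.177 ± 0.173 CPM in RT mice stood against 2.68 ± 0.60 CPM after 6 hours, 5.10 ± 1.68 CPM after 2 days and 3.43 ± 2.31 CPM after 5 days. At 5 days 2 mice had 5.645 and 6.23 CPM and the other 3 between 1.39 and 2.16 CPM. Scaled to depth, the summed reads were 14.1 times those of the controls after 6 hours (95% interval 5.705 to 44.96), 26.8 times after 2 days (11.2 to 84.1) and 18.0 times after 5 days (7.39 to 56.8); these intervals cover counting error only and rest on 5 control reads. At 1, 2 and 3 days the gene passed the filter only through its cold-exposed mice, so that its calls by edgeR at these times are given no weight. Where the filter removed the gene, exact permutation tests of log2 CPM gave p = 0.00794, the smallest that 5 mice against 5 allow, at 6 hours, 4 days and 5 days (adjusted p = 0.0238 over 9 tests).

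Elovl7 (ENSMUSG00000021696, chromosome 13, 108214404 to 108285683, plus strand), which elongates saturated chains, was near the detection limit. It had 1, 2, 2, 1 and 3 reads in RT mice, 3, 8, 2, 6 and 9 after 1 day and 1, 1, 2, 0 and 0 after 4 days. None of the 6 comparisons passed in the exact permutation tests (adjusted p of at least 0.1). After 1 day the difference in mean log2 CPM was 1.04 (exact p = 0.0476, adjusted p = 0.1), and it passed only without 1 day mouse 3 (1.28, adjusted p = 0.0179). After 3 days 2 mice had 0 reads and 1 mouse had 10, so that the counts of that group cannot be read as one level.

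Elovl1 (ENSMUSG00000006390, chromosome 4, 118428093 to 118432953, plus strand) makes the saturated very long chains used in sphingolipids. It was at 5.78, 8.52, 5.00, 3.78 and 5.79 CPM in RT mice and at 7.80, 8.23, 9.13, 13.02 and 8.27 CPM after 1 day. After 3 days it was at 11.2, 7.39, 14.6, 8.86 and 8.74 CPM. The groups overlapped at both times, with 2 and 4 mice above every control. edgeR called it higher after 1 day (log2 fold change 0.68, SE 0.23, adjusted p = 0.0264) and 3 days (0.83, SE 0.24, adjusted p = 0.0131) and at no other duration, where the fold changes were 0.23 to 0.40. The call at 1 day was lost without RT mouse 3 or 4 or 1 day mouse 4 (0.54 to 0.64, adjusted p 0.0534 to 0.0725 in edgeR), and one at 6 hours appeared without RT mouse 2 (0.57, adjusted p = 0.0419). Elovl1 and Cdc20, a gene of mitosis, share exon sequence on opposite strands. Cdc20 had 0 to 4 reads in RT mice, 11 to 25 after 3 days and 6 to 42 after 5 days, where Elovl1 had 23 to 44, 34 to 82 and 25 to 40 reads. The strand setting used for counting is not given in the sources used here, so that their reads may not be fully separable. Within each mouse the log2 ratio of Elovl3 to Elovl1 rose from -0.33 ± 1.35 in RT mice to 4.08 ± 0.54 after 6 hours and 6.20 ± 0.36 after 5 days, and was past the threshold at all 6 durations (exact p = 0.00794, adjusted p = 0.0173 over 24 ratio tests).

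Scd1 (ENSMUSG00000037071, chromosome 19, 44394455 to 44407879, minus strand) is the main stearoyl-CoA desaturase of adipose tissue and liver and makes oleate and palmitoleate. RT mice had 4651, 2895, 3265, 3341 and 3921 CPM. The values were 2247, 1819, 2669, 2801 and 2127 CPM after 6 hours and 1907, 1706, 2461, 1968 and 1230 CPM after 1 day. Each of these 10 mice lay below every control. Scd1 was at 2300.0, 1384, 939.5, 2487 and 1415 CPM after 2 days and at 1972, 2282, 2246, 1123 and 2230.0 CPM after 3 days, again below every control. After 4 days it was at 2505, 1275, 1881, 3247 and 3159 CPM, and after 5 days at 3505, 3009, 4819, 4528 and 3680.0 CPM. At 4 days 3 of 5 mice were still below all controls, and at 5 days none was. The mean thus fell from 3615 ± 686 CPM to 2333 ± 402 CPM after 6 hours (log2 fold change -0.66, SE 0.13, adjusted p = 7.9e-04 in edgeR) and to 1705 ± 659.5 CPM after 2 days (-1.10, SE 0.23, adjusted p = 0.00181). After 5 days it was 3908 ± 748 CPM (0.10, SE 0.15, adjusted p = 0.616 in edgeR). The difference between 5 days and 6 hours was itself past the threshold (0.74, SE 0.23, adjusted p = 0.0106 in edgeR). At 4 days the call (-0.59, adjusted p = 0.0297) was lost with DESeq2 (-0.56, adjusted p = 0.0926) and in edgeR without RT mouse 1 or 5 or 4 day mouse 1, 2 or 3 (-0.41 to -0.60, adjusted p 0.0535 to 0.0805).

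A list drawn up for white-like adipocytes (7 genes, among them Lep, Car3, Nnat and Cfd, none at 0) had a lower summed level while Scd1 fell. The paper uses Car3 and Nnat as markers of early brown adipocyte differentiation, so that the list does not mark white-like cells alone. The sum, which weights each gene by its abundance, was 7904 to 9290 CPM in RT mice. It was 4078 to 6640 CPM after 6 hours and 1125 to 2063 CPM after 1 day. At 1 day 4 of the 6 tested were called lower (median log2 fold change -1.61), beside 17.8% of all genes. At 6 hours the list was split, with 2 of 6 lower and 1 higher (median -0.52), beside 21.0% and 21.5% of all genes. After 5 days, when Scd1 was back among the control values, the sum was 966 to 2238 CPM and still below every control. At that time 3 of 7 genes were called lower, beside 18.6% of all genes, and the median log2 fold change was -0.20. Their part in the fall of Scd1 was not tested.

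Scd2 (ENSMUSG00000025203, chromosome 19, 44293674 to 44306864, plus strand) is the closely related desaturase next to Scd1 and is the main form in brain. Control mice had 15.8, 7.55, 23.05, 15.6 and 18.5 CPM. After 6 hours it was at 9.17, 12.0, 14.1, 15.1 and 6.475 CPM, and after 1 day at 20.6, 30.85, 54.4, 13.5 and 22.0 CPM. At 6 hours only 1 mouse lay below all controls, and at 1 day 2 mice lay above them. The values were 64.8, 62.6, 70.7, 84.3 and 88.25 CPM after 2 days, 105.9, 92.5, 74.2, 83.0 and 79.7 CPM after 3 days, and 107.9, 63.0, 106.6, 88.0 and 99.2 CPM after 4 days. After 5 days they were 68.7, 90.1, 89.1, 147 and 90.0 CPM. All 20 mice from 2 to 5 days lay above every mouse of the RT, 6 hour and 1 day groups. The log2 fold change was -0.53 after 6 hours (SE 0.25, adjusted p = 0.101 in edgeR) and 0.83 after 1 day (SE 0.31, adjusted p = 0.0479). It was 2.19, 2.44, 2.53 and 2.59 after 2 to 5 days, each with an adjusted p of at most 1.5e-06 in edgeR. The call at 1 day was lost without RT mouse 1, 2, 4 or 5 or 1 day mouse 2 or 3 (0.44 to 0.88, adjusted p up to 0.211 in edgeR) and with library size alone (0.59). At 6 hours a lower level was called with library size alone, with no filter on counts, and without RT mouse 2 (-0.71). The sequences of Scd1 and Scd2 are alike, and how reads matching both were assigned is not given in the sources used here, so that the counts of Scd2, far below those of Scd1, are uncertain.

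Scd1 and Scd2 were therefore also set against each other in each mouse. Scd2 made up 0.447% ± 0.167 of the reads of both genes in RT mice and 0.485% ± 0.135 after 6 hours. Its share was 1.49% ± 0.60 after 1 day, 4.64% ± 1.78 after 2 days and 4.505% ± 1.52 in the 3 day group. In the 4 day group it stood at 3.98% ± 1.13 and in the 5 day group at 2.44% ± 0.588. The mean share was highest at 2 and 3 days, while Scd1 was low, and lower at 5 days, when Scd1 was back among the control values and Scd2 was not below its level of 4 days. On the log2 scale the ratio of Scd1 to Scd2 was 7.84 ± 0.53 in RT mice and lower by 1.70 after 1 day (exact p = 0.0159, adjusted p = 0.0254 over 24 ratio tests). It was lower by 3.40, 3.38, 3.20 and 2.49 after 2 to 5 days (exact p = 0.00794, adjusted p = 0.0173 for each). At 6 hours the ratio differed by -0.17 and did not pass (exact p = 0.579), as both genes were lower in the mean.

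**Figure D3:**
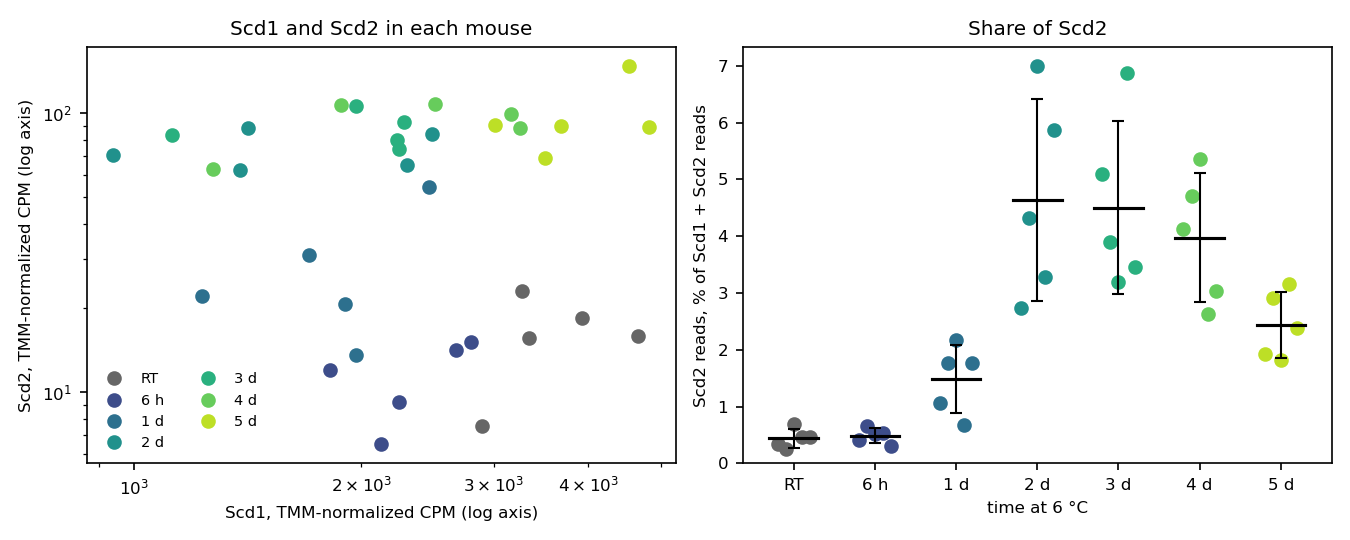
Left, Scd2 against Scd1 in each of 35 mice (TMM-normalized CPM, both axes on a log scale), coloured by time at 6 °C. Right, the reads of Scd2 as a percentage of the reads of both genes by time (points are mice, bars the mean and SD of 5); the mean was 0.447% in RT mice and 4.64% after 2 days.

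Fads1 (ENSMUSG00000010663, chromosome 19, 10182888 to 10196877, plus strand) and Fads2 (ENSMUSG00000024665, chromosome 19, 10062765 to 10101746, minus strand) carry out the desaturation steps of polyunsaturated fatty acid synthesis and lie close together. Fads1 was at 4.43, 5.615, 9.35, 6.24 and 6.695 CPM in RT mice, and its group means in the cold lay between 4.71 ± 0.52 CPM (1 day) and 7.14 ± 2.32 CPM (3 days). Fads2 was at 1.16, 1.74, 4.35, 3.61 and 3.98 CPM in RT mice, with means of 3.67 ± 1.78 CPM (1 day) to 4.68 ± 1.18 CPM (3 days). For both genes, every cold-exposed group overlapped with the controls. The log2 fold changes of Fads1 ranged from -0.46 (SE 0.22, 1 day, adjusted p = 0.119 in edgeR) to 0.16 (SE 0.25, 3 days). Those of Fads2 ranged from 0.31 to 0.65 with SE of 0.32 to 0.39, at 6 to 37 reads per mouse. None of these changes was called, and changes somewhat larger than these could also have been missed. With library size alone, Fads1 after 1 day was called lower (-0.68). The F test over 7 groups gave adjusted p of 0.431 for Fads1 and 0.608 for Fads2 in edgeR. Their log2 ratio within mice was 1.11 ± 0.43 in RT mice and between 0.42 and 0.67 in the cold, and passed at no duration (exact tests, adjusted p of at least 0.0847). It passed only without 1 day mouse 4 (-0.90, adjusted p = 0.0224) or 3 day mouse 3 (-0.73, adjusted p = 0.0336).

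Of the other members of the 3 families, Elovl2 had at most 3 reads in any mouse, Degs2 at most 4, and Scd4 2 reads in all 35 libraries. Scd3 had 1 to 4 reads in RT mice, 7 to 36 after 4 days and 9 to 36 after 5 days, and all 10 of these mice lay above every control. Most Scd3 reads were thus in the later groups, and they share the uncertainty over reads that match more than 1 Scd gene. Fads3 rose from 5.80 ± 1.49 CPM to 9.47 ± 0.79 CPM after 6 hours (log2 fold change 0.69, SE 0.20, adjusted p = 0.00948 in edgeR). Fads6 had 3 to 6 reads in RT mice and 10 to 24 after 3 days, when each mouse lay above the controls in CPM. Degs1, the desaturase that makes ceramide, rose after 1 day (30.7 ± 2.88 to 41.8 ± 5.57 CPM, log2 fold change 0.44, SE 0.12, adjusted p = 0.00764 in edgeR).

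The durations were then compared with one another to ask when each enzyme changed, in 1 edgeR fit over all 35 mice. From 6 hours to 1 day, 3 of 9 members were called, all higher, beside 15.3% of the genes tested. Elovl3 rose by 1.37 on the log2 scale (SE 0.26, adjusted p = 2.2e-04), Scd2 by 1.34 (SE 0.28, adjusted p = 6.5e-04) and Elovl6 by 0.69 (SE 0.24, adjusted p = 0.0403 in edgeR). The Elovl6 step was lost with DESeq2 (adjusted p = 0.0508) and in edgeR without 6 hour mouse 1, 2, 4 or 5 or 1 day mouse 1, 2 or 3 (0.50 to 0.72, adjusted p 0.0543 to 0.172). From 1 to 2 days 1 member was called, beside 3.15% of genes: Scd2 rose by 1.37 (SE 0.25, adjusted p = 8.5e-04 in edgeR). From 2 to 3 days 0 members were called, beside 0.497% of genes. Between 3 and 4 days and between 4 and 5 days, 0.0 and 0.0% of genes were called by edgeR, with 904 and 848 of 12077 genes at an unadjusted p below 0.05, and DESeq2 called 1 and 0 genes. In the last step the log2 differences were 0.70 for Scd1 (SE 0.23, adjusted p = 0.567) and 0.42 for Elovl5 (SE 0.16, adjusted p = 0.639 in edgeR). Scd1 was called in that step only without the filter on counts. Between 6 hours and 5 days, 5 of 9 members were called, all higher, beside 34.1% of genes: Scd2 by 3.10, Elovl3 by 1.92, Elovl6 by 0.94, Elovl5 by 0.88 and Scd1 by 0.74. For Elovl4, neighbouring durations from 6 hours on did not differ beyond their spread in edgeR (largest difference 0.72, SE 0.41, adjusted p = 0.248).

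Of the other enzymes of the elongation cycle, 6 were tested, and 2 were higher after 6 hours, 1 day and 2 days, 3 after 3 and 4 days and 4 after 5 days, and none was lower. Of all genes tested, 16.4% to 21.5% were called higher at these durations, with 21.5% at 6 hours and 20.2% at 5 days. Hacd2, a dehydratase of the cycle, rose from 70.8 CPM in RT mice to 376 CPM after 6 hours (log2 fold change 2.39, SE 0.19) and 333 CPM after 5 days (2.22, SE 0.18). Hsd17b12, its ketoacyl reductase, rose from 207 to 306 CPM (0.55, SE 0.12) and 455 CPM (1.13, SE 0.13), and Tecr, the last reductase, was called after 5 days (0.42, SE 0.14). All these were called by edgeR. Of the cytochrome b5 genes and their reductases, a family that includes the electron donors of the desaturases, 5 were tested. Which of them serve the desaturases in this tissue was not tested. After 6 hours 0 were called, and after 1 day 2 were higher and 2 lower, beside 18.9% and 17.8% of all genes. Cyb5b rose by 0.69 after 1 day (SE 0.11) and 1.01 after 5 days (SE 0.10), while Cyb5a was lower by 0.55 after 1 day.

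The palmitate supply list holds 11 genes around fatty acid synthesis, Mcat and Oxsm among them, and not each of them need serve palmitate itself. After 6 hours 6 of 11 were lower and 0 higher than in RT mice, beside 21.0% and 21.5% of all genes. The median log2 fold change was -0.71 beside -0.03 over all genes tested. After 1 to 5 days the numbers called higher were 1, 2, 4, 6 and 9 of 11, beside 16.4% to 20.2% of all genes, with none lower, and the median after 5 days was 0.85 beside -0.02. Fasn, fatty acid synthase itself, was at 1740 ± 1110 CPM in RT mice, 698 ± 216 CPM after 6 hours (-1.34, SE 0.36, adjusted p = 0.00586 in edgeR) and 4470 ± 972 CPM after 5 days (1.35, SE 0.34, adjusted p = 0.00406). Acly, which makes cytosolic acetyl-CoA, went from 308 to 96.8 and then 1330.0 CPM, with log2 fold changes of -1.69 (SE 0.34) and 2.11 (SE 0.37). Thrsp and Acaca fell after 6 hours by 1.60 and 1.04, and Me1 and Slc25a1 rose after 5 days by 1.86 and 1.17. The mean of Elovl6 was thus higher at 6 hours while those of Fasn and Acly were lower, and for Fasn the groups overlapped, with 1 of 5 mice below all controls.

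**Figure D4:**
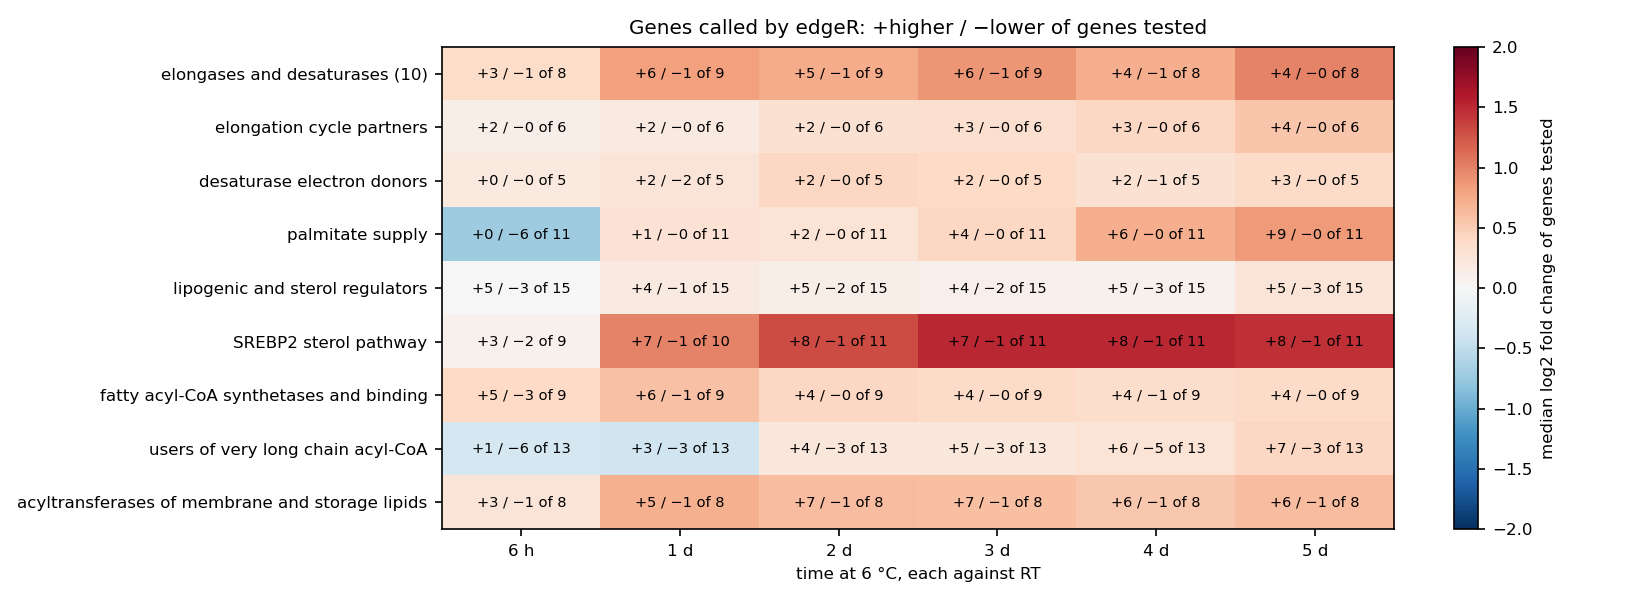
Median log2 fold change against RT of the tested genes of each list (colour) by time at 6 °C (x axis), with the number called higher and lower by edgeR printed in each cell. The palmitate supply list had 6 of 11 lower after 6 hours and 9 of 11 higher after 5 days; the first row is the 10 elongases and desaturases.

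Genes of the sterol pathway that answers to SREBP2 were called higher in 3 of 9 tested and lower in 2 after 6 hours, beside 21.5% and 21.0% of all genes. They were higher in 7 of 10 after 1 day, in 8 of 11 after 2, 4 and 5 days and in 7 of 11 after 3 days, with 1 lower each time, where 16.4% to 20.2% of all genes were higher. From 1 to 5 days the lower gene was Fdft1, squalene synthase (23.4 CPM in RT mice, 3.61 CPM after 1 day and 6.89 CPM after 5 days). Hmgcs1 rose by 1.23 after 1 day (SE 0.14) and Sc5d by 1.71 (SE 0.14) after 5 days. Of the 15 regulators, 5, 4, 5, 4, 5 and 5 were higher and 3, 1, 2, 2, 3 and 3 lower at the 6 durations, beside 16.4% to 21.5% of all genes higher and 14.7% to 21.0% lower. Srebf1, which encodes the lipogenic SREBP1, was at 65.8 ± 8.13 CPM in RT mice, 19.2 ± 4.03 CPM after 6 hours (-1.80, SE 0.14, adjusted p = 2.9e-08 in edgeR) and 42.9 ± 5.36 CPM after 5 days (-0.63, SE 0.12, adjusted p = 4.3e-04). Insig1, a sterol sensor partner and itself an SREBP target, was at 38.2 ± 8.38 CPM in RT mice, 27.1 ± 10.4 CPM after 6 hours (adjusted p = 0.0708 in edgeR), 124 ± 26.0 CPM after 2 days (1.69, SE 0.17) and 162 ± 57.5 CPM after 5 days (2.08, SE 0.20). Ppargc1a, a coactivator of thermogenic genes, rose from 60.5 ± 16.4 to 754 ± 226 CPM after 6 hours (3.62, SE 0.22) and was 238 ± 60.6 CPM after 5 days (1.97, SE 0.18).

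Among genes that activate or bind acyl chains, 5 of 9 were higher and 3 lower after 6 hours, beside 21.5% and 21.0% of all genes. After 5 days 4 were higher and 0 lower, beside 20.2% and 18.6% of all genes. Acsl5, an acyl-CoA synthetase, reached 147 CPM after 6 hours (1.54, SE 0.28), 410.0 CPM after 1 day (3.04, SE 0.26) and 639 CPM after 5 days (3.67, SE 0.25). Of 13 genes that use very long acyl-CoA, 1 was higher and 6 lower after 6 hours, and 7 higher and 3 lower after 5 days, beside the same shares of all genes at each of these times. Abcd2, a peroxisomal importer of very long acyl-CoA, fell by 1.65 after 6 hours, 2.49 after 1 day and 1.61 after 5 days, and Ehhadh, of peroxisomal oxidation, rose by 1.68 after 1 day and 1.69 after 5 days. Of 8 acyltransferases tested, 3, 5, 7, 7, 6 and 6 were higher at the 6 durations and 1 was lower each time, beside 16.4% to 21.5% and 14.7% to 21.0% of all genes. Agpat2 and Gpam, which build phosphatidic acid, rose after 5 days by 1.71 and 1.04. Dgat1 rose by 1.53 after 6 hours, whereas Dgat2 fell by 0.90.

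The genes whose log2 CPM followed each member most closely over the 35 mice were sought among 8889 genes with a mean of at least 20 reads. The search left out Elovl4, Elovl7 and Fads2, whose mean was lower. Because all mice share the large differences between durations, these correlations are a description. For Elovl3 they were Slc25a39 (r = 0.96), Slc25a34 (0.95) and 4931406C07Rik (0.95), with r within durations of 0.57, 0.78 and 0.72. Elovl6 was most like Mpc2, a subunit of the mitochondrial pyruvate carrier (0.94, and 0.87 within durations), Acsl5 (0.94) and Dnaja3 (0.93). Mrpl43 (0.88), Hint1 (0.83) and Cox20 (0.83) were closest to Elovl5. Scd2 was most like Gm15241 (0.94), Insig1 (0.94, and 0.47 within durations) and Ccdc122 (0.94). Scd1 had lower values, with Rtn4 (0.73), Ntrk3 (0.71) and Lgals1 (0.70), as had Elovl1, with Ostc (0.73), Tagln2 (0.67) and Myh9 (0.66), and Fads1, with Klhl28 (0.57), Arl6ip5 (0.55) and Enpep (0.55).

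To ask whether the enzymes also varied together among mice of the same group, each mouse's log2 CPM was taken less its group mean, and the 45 pairs of members were tested with 100000 permutations within groups. Of the 45 pairs, 3 passed. Pairs of other genes were not tested in this way, so that no share over all genes stands beside this count. Elovl6 and Scd2 went together (Pearson r = 0.62, permutation p = 2.2e-04, adjusted p = 0.0099, Spearman rho = 0.57, 35 mice), and without the 2 mice farthest from the median r was 0.66. Elovl3 and Elovl6 did so too (r = 0.50, permutation p = 0.00282, adjusted p = 0.0423, rho = 0.58, and 0.52 without 2 mice). Elovl1 and Elovl6 varied in opposite directions (r = -0.59, permutation p = 0.00129, adjusted p = 0.029, rho = -0.59, and -0.55 without 2 mice). In the 30 cold-exposed mice alone the values of r were 0.64, 0.56 and -0.64, and a pair not called over 35 mice, Elovl3 and Fads2, passed (r = 0.41, adjusted permutation p = 0.03195, against -0.10 over 35 mice). Elovl6 and Scd1 had r = 0.49 and did not pass (adjusted permutation p = 0.0907). The points of a pair come from the same libraries, and their shared depth and scaling were not removed. Within durations, r with genes outside the set could be larger, at 0.87 for Elovl6 with Mpc2 and 0.70 for Elovl1 with Ostc. Mpc2 and Ostc were picked from 8889 genes for their likeness over the 35 mice. The 3 pairs are thus not shown to be particular to these enzymes.

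**Figure D5:**
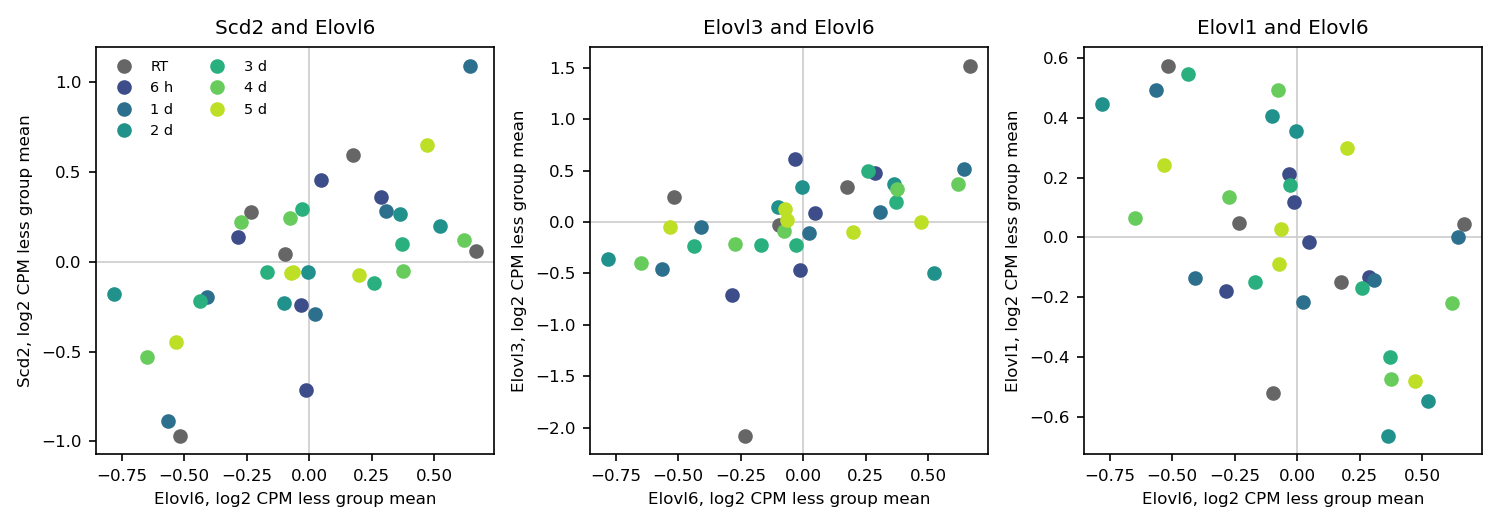
Log2 CPM less the group mean in 35 mice (5 per group, coloured by time at 6 °C) of Scd2, Elovl3 and Elovl1 (y axes) against Elovl6 (x axes). Within groups r was 0.62 for Scd2, 0.50 for Elovl3 and -0.59 for Elovl1.

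Other marker lists moved with the durations too, and their part in the changes of the 10 genes was not tested. The summed level of 5 genes of the positive limb of the clock was 48.85 to 62.2 CPM in RT mice and 122.8 to 152 CPM after 6 hours, and 78.4 to 100.4 CPM after 5 days. The 9 genes of the negative limb summed to 404.5 to 606.5 CPM in RT mice, 240.5 to 308 CPM after 6 hours and 133 to 152.5 CPM after 1 day. The 10 macrophage genes summed to 60.4 to 136 CPM in RT mice and 117 to 476 CPM after 3 days. The 8 genes of proliferating cells were at 8.48 to 12.97 CPM in RT mice and 32.0 to 53.2 CPM after 3 days. The 7 endothelial genes were at 274 to 338 CPM in RT mice, 531 to 623 CPM after 1 day and 245 to 400 CPM after 5 days. Of these, 4 of 6 tested were called higher after 1 day, beside 18.9% of all genes. After 5 days 0 of 7 were higher and 2 lower, beside 20.2% and 18.6%. Brown adipocyte genes summed to 18830.0 to 25330.0 CPM after 6 hours and 17700.0 to 22710.0 CPM after 5 days, sums that weight each gene by its abundance. The list itself was split. After 6 hours 1 of 10 was called higher and 2 lower (median log2 fold change 0.005), beside 21.5% and 21.0% of all genes. After 5 days 3 were higher and 2 lower (median 0.13), beside 20.2% and 18.6%. Stromal progenitor genes summed to 512 to 753 CPM in RT mice, 344 to 452 CPM after 1 day and 467 to 857 CPM after 3 days. After 1 day 5 of 7 tested were called lower, beside 17.8% of all genes, and after 3 days 0 were called. Schwann cell genes overlapped (29.5 to 42.7 CPM in RT mice and 24.7 to 38.25 CPM after 1 day). Skeletal muscle genes varied between mice of every group, from 72.0 to 977 CPM in RT mice and from 2.57 to 511 CPM after 3 days. Erythroid genes were at 1816 to 2333 CPM in RT mice and 2693 to 4994 CPM after 5 days, and lymphocyte genes summed to at most 7.88 CPM in any mouse, with Cd79a at 0 in every mouse of all groups but that of 3 days.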

How the data were processed

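RNA of iBAT from 35 mice was analysed from the gene-level counts deposited by the authors, whole numbers without normalization. Per the paper's methods and the submitters' processing notes, QuantSeq 3' FWD libraries were aligned with STAR 2.6.1d and counted with HTSeq 0.11.2 on GRCm38. Every column was matched to a mouse by its label. All 10 members and 55154 of 55421 identifiers had a symbol. Members, gene lists and tests were chosen with earlier results of these data known.

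Each duration was compared with RT in its own fit of 10 mice with edgeR 4.0.16 in R 4.3.3 (TMM, filterByExpr, quasi-likelihood test), and durations with each other in 1 fit of 35 mice. P-values were adjusted over all genes tested. Members removed by the filter (9 tests) and ratios within mice (4 pairs, 24 tests) had two-sided exact permutation tests on log2 CPM with a prior count of 2. Correlations within groups used 100000 permutations. Count ratios carry exact 95% intervals. Promoters came from RefSeq (GRCm38.p6). Genes named besides the members are the other family members, up to 4 genes per list with the largest called change after 6 hours, 1 day or 5 days and a mean of at least 20 reads, Fasn, Srebf1, Insig1 and Ppargc1a, and the 3 genes most like a member. Cdc20, Pitx3 and Gm35986 are named for their overlap. One gene that this rule names is not reported here. Alternatives were RLE factors, library size only, no filter, omission of mitochondrial genes and Gm42418, DESeq2 1.42.0 (also for rlog), another set of mice in the fit, the replicate number as a block, and omission of single mice. The tests were tried on simulated data. Tests outside R and the plots used scipy 1.17.1, numpy 2.4.6, matplotlib 3.10.9 and pandas 2.3.3 under Python 3.11.15.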

Additional observations from a re-analysis of the deposited data

Results flagged for a closer look

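For each member and group with at least 10 reads in 1 mouse, 63 sets of 5 mice in all, the highest and lowest mouse were compared with the other 4 by Dixon's criterion, which chance meets in about 1 in 20 sets. In 4 of the 63 sets 1 mouse lay far from the others. Elovl1 was at 13.02 CPM in 1 mouse after 1 day, where the next highest had 9.13 CPM. Elovl5 was at 39.42 CPM in 1 mouse after 4 days, and the next lowest had 57.69 CPM. One mouse kept for 3 days had 1123 CPM of Scd1, the next lowest having 1972 CPM. One mouse kept for 5 days had 147.3 CPM of Scd2, and the next highest 90.11 CPM.

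For 5 of the 9 members tested the effect of cold after 5 days differed from that after 6 hours in edgeR's test of the difference over 35 mice. The same test called 34.1% of all genes tested. The log2 differences were 3.10 for Scd2 (SE 0.27, adjusted p = 2.7e-11), 1.92 for Elovl3 (SE 0.26, adjusted p = 4.1e-07), 0.94 for Elovl6 (SE 0.24, adjusted p = 0.00202), 0.88 for Elovl5 (SE 0.16, adjusted p = 5.3e-05) and 0.74 for Scd1 (SE 0.23, adjusted p = 0.0106). For Scd1 the effect itself was -0.66 after 6 hours and 0.10 after 5 days, and for Scd2 it was -0.53 and 2.59.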

How the results depend on the processing

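Of the values recomputed without leaving out single mice, 845 kept direction and side of the threshold, 5 calls were lost and 4 were gained. A further 21 values changed sign, none of them past the threshold over all mice in the main analysis. With 1 mouse left out the numbers were 1299, 42, 5 and 34. The first set of numbers includes the correlations in the 30 cold-exposed mice alone. The calls that changed stand beside their results, and the cause of these changes was not tested. The replicate numbers did not pair the mice (mean correlation of deviations -0.0111 for the same number and 0.0027 for other numbers, with 4 of 35 mice closest to their own number), and with the replicate block every count of members called stayed the same (7 after 1 day) and Fads2 between 2 days and 1 day became 0.0072. With library size only, the log2 change became -0.1641 for Fads1 and -0.1426 for Scd1 after 5 days, 0.0211 for Elovl3 between 3 and 2 days, -0.004 between 4 and 3 days, and -0.0336 for Elovl1 and -0.0444 for Scd2 between 5 and 4 days, and 1 gene was called in that last step. With only the 2 durations compared, Elovl3 between 4 and 3 days was -0.0046, and the genes called were 130 from 1 to 2 days and 15 from 2 to 3 days, where the fit of 35 mice called 381 and 60. Without the filter on counts these were 625 and 245, then 89 from 3 to 4 days and 70 from 4 to 5 days with 1 member, Scd1; DESeq2 called 1 gene from 3 to 4 days. A prior count of 0.5, chosen after seeing the data, gave -0.0001 for Elovl7 after 3 days. Correlations that changed sign with rlog values were 0.2213 (Elovl3, Elovl4), 0.1709 (Elovl3, Fads2), 0.034 (Elovl4, Elovl6), 0.0058 (Elovl5, Fads2) and -0.0781 (Elovl7, Fads2). In the 30 cold-exposed mice they were 0.2474, 0.4123, 0.0613, 0.2126 and -0.0514 for the same pairs, with -0.1041 (Elovl1, Elovl5) and 0.0255 (Elovl5, Scd2), and of these 0.4123 passed.

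With single mice left out, the 6 hour comparison called 3 to 7 members, the 7 including a member that the filter removes when all mice are used. The genes called numbered 192 to 416 from 1 to 2 days (fewest without 2 day mouse 2) and 13 to 92 from 2 to 3 days (fewest without 3 day mouse 1 or 4, most without 3 day mouse 5). Values against RT ranged from -0.2074 to 0.0641 (Fads1, 6 hours), -0.0268 to 0.3164 (Fads1, 3 days), -0.0498 to 0.2444 (Fads1, 5 days), -0.0012 to 0.4972 (Fads2, 1 day), -0.1545 to 0.4937 (Elovl7, 3 days) and -0.3464 to 0.0001 (ratio of Scd1 to Scd2, 6 hours). Steps ranged from -0.3709 to 0.1316 (Fads2, 6 hours to 1 day), -0.185 to 0.321 (Fads2), -0.0352 to 0.296 (Elovl6) and -0.2992 to 0.0314 (Scd1, all 1 to 2 days), -0.2003 to 0.0262 (Elovl3, 2 to 3 days), -0.0875 to 0.1531 (Elovl3) and -0.007 to 0.3931 (Elovl4, both 3 to 4 days), -0.032 to 0.2192 (Elovl1), -0.0035 to 0.3555 (Fads2) and -0.1382 to 0.1598 (Scd2, all 4 to 5 days), and -0.1902 to 0.002 (Elovl1, 6 hours to 5 days). Depth limits Elovl7, Elovl4 and the RT level of Elovl3.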
